A study of Mus musculus with 6 samples.

Results

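Lipid-handling genes of macrophages were followed through the myeloid cells of 6 mice. These were 10 of the 32285 genes counted, selected by symbol with earlier results of these data known. They were Cd36, Lpl, Fabp4, Fabp5, Pparg, Plin2, Abca1, Abcg1, Apoe and Trem2. Each library held the single cells of 1 mouse, and the unit of measurement was the unique molecular identifier (UMI), which counts 1 captured RNA molecule near its 3′ end. UMIs were summed per library over cells gated by marker genes as monocytes, macrophages, dendritic cells or neutrophils, and were expressed as CPM, the share of that class's UMIs scaled to a total of 1000000.

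The mice were young adult female C57BL/6 animals, 6 to 8 weeks old at injection, that carried KPCA tumors in the ovarian bursa. KPCA is a mouse ovarian cancer line that is proficient in homologous recombination, with altered Trp53 (the label gives -/- and R172H) and overexpressed Ccne1 and Akt2, among other changes not given here. The control mouse received solvent and rat IgG. The 2DG mouse received 2-deoxy-D-glucose, a glucose analog used here to lower branched N-glycans, from day 9. The 2FF mouse received 2-fluorofucose, a fucose analog that lowers fucosylation, and its tumor cells had also been grown with 2FF before injection. The anti-PD-L1 mouse was given, after day 9, an antibody that blocks PD-L1, a ligand of the checkpoint receptor PD-1, and 2 further mice received this antibody together with 2DG or with 2FF. All 6 mice were sacrificed on day 30. Lymph node is the tissue named in the sample labels, and young and aged mice are mentioned for the series, whereas the study itself describes these cells as coming from tumors. With 1 mouse and 1 library per group, a treatment cannot be told apart from a mouse or a library, no test between groups was possible, and every interval below covers counting error only.

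Macrophages take up modified lipoproteins and fatty acids, hold them in droplets and hand cholesterol back to lipoproteins. CD36 is a scavenger receptor for fatty acids and oxidized lipoproteins, and lipoprotein lipase (Lpl) frees fatty acids from triglyceride-rich particles. FABP4 and FABP5 carry fatty acids inside the cell, and PPARγ (Pparg) is a nuclear receptor that fatty acids activate and that drives Cd36 and Fabp4 in fat and macrophages. PLIN2 coats lipid droplets. ABCA1 and ABCG1 export cholesterol to lipoprotein acceptors, APOE is an apolipoprotein that macrophages secrete, and TREM2 is a surface receptor that senses lipids and lipoproteins. Lipid-laden macrophages of tumors, plaques and obese fat are commonly recognised by several of these RNAs.

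After removal of cells with fewer than 250 genes or over 5% mitochondrial UMIs, 51633 cells were left, of which 28083 (54.4%) fell in the 4 myeloid classes. These were 15047 monocytes, 7075 macrophages, 1760 dendritic cells and 4201 neutrophils. The libraries held between 61859753 and 73885214 UMIs before that filter, and between 100 and 113 kept barcodes of each library also occurred in another. The control library stood apart in its makeup. Neutrophils were 31.4% of its cells and 2.15% to 4.14% of the cells of the 5 treated libraries, while gated T cells were 4.01% against 23.1% to 32.8%. Its macrophages also held a median of 13638 UMIs, against 9584.5 to 10548. The macrophage gate required macrophage markers, and it left out cells with lymphoid, tumor or stromal marker UMIs above a limit. Levels of these markers in macrophages therefore largely follow from the gate and are no test of purity. The summed level of the 10 macrophage markers was 8285 to 11962 CPM in macrophages and 97.4 to 182 CPM in T cells. In macrophages, T cell markers were at 3.61 to 16.5 CPM, tumor epithelium at 2.94 to 6.11 and fibroblasts at 1.36 to 3.61. Markers of adipocytes, a major source of Fabp4 and Lpl, were not used by the gate and stood at 0.0714 to 0.833 CPM. Neutrophil markers reached 1695 CPM in control macrophages and 253 to 670 CPM in the treated ones, and platelet markers 576 against 162 to 231 CPM. Most of the latter was Pf4 (537 against 154 to 224 CPM), while the platelet integrin Itga2b and glycoprotein Gp9 were at 0.0669 to 2.11 CPM in all 6 libraries.

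Only some of the 10 genes were highest in macrophages in these cells. In 25 of the 60 pairs of a gene and a library, the highest of the 4 class levels was that of macrophages. The same share over all genes is not given here, so whether this count is high or low was not tested. Apoe, Trem2, Abca1 and Lpl were highest there in all 6 libraries. Plin2 was highest in neutrophils in all 6, Fabp5 in dendritic cells in all 6, and Pparg in monocytes in all 6. Fabp4 was highest in dendritic cells in 4 libraries and in monocytes in 2, Abcg1 in monocytes in 3 and in neutrophils in 3, and Cd36 in monocytes in 3, in dendritic cells in 2 and in macrophages in 1.

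**Figure D1:**
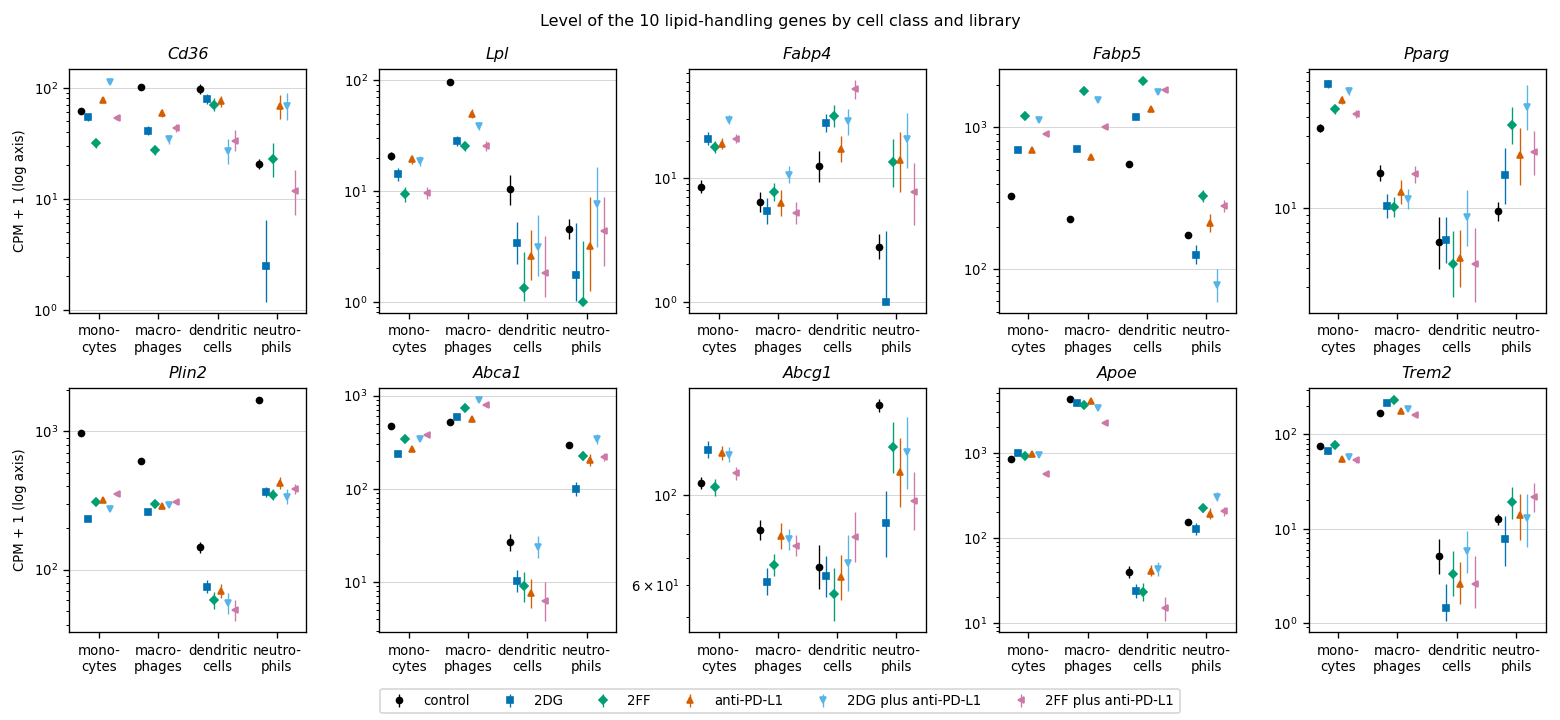
Level of each gene in CPM + 1 (log axis) in the 4 myeloid classes, with 1 point per library and bars for the 95% Poisson interval of the count. Apoe, Trem2, Abca1 and Lpl peak in macrophages, and the control points lie highest for Plin2 in every class and lowest for Fabp5 in monocytes, macrophages and dendritic cells.

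Between libraries, a gene was counted as past 2-fold when its log2 ratio of CPM + 5 was at least 1 in size and it had at least 50 UMIs over the 2 libraries compared. The 5 comparisons were 2DG, 2FF and anti-PD-L1 over control, and each combination over the antibody alone. They share the control or the anti-PD-L1 library, so they are not independent of each other. Because the 10 genes were chosen with earlier results known, their counts beside the share of all genes are a description and no test. In macrophages, 4 of the 10 genes were past 2-fold for 2DG over control, beside 2.09% of all tested genes, 4 for 2FF beside 3.1%, and 2 for anti-PD-L1 beside 2.2%. Only Fabp5 was past 2-fold for 2DG plus anti-PD-L1 against the antibody alone, beside 1.26%, and none for 2FF plus anti-PD-L1, beside 0.682%. All 10 genes had enough UMIs to be counted in macrophages. The median log2 ratio over the 10 genes was -0.28, -0.25 and -0.06 over control and -0.0011 and -0.12 in the combinations, beside 0.0016, -0.04, 0.02, -0.08 and -0.08 over all genes tested. The 11 values past 2-fold belonged to Fabp5, Plin2, Cd36 and Lpl. Apoe, Trem2, Abca1, Abcg1, Pparg and Fabp4 stayed under 2-fold in all 5 comparisons in macrophages.

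In monocytes, the values past 2-fold were Fabp5 and Plin2 in each comparison with control and no others, beside 6.77%, 5.96% and 5.57% of all genes. No member was past 2-fold in monocytes for either combination, beside 0.512% and 0.547%. In dendritic cells 2, 4 and 3 of 7 genes with enough UMIs were past 2-fold over control, beside 1.78%, 3.22% and 2.73%. For the combinations these were 2 of 7 beside 2.64% and 3 of 6 beside 1.84%. In neutrophils 3, 2 and 2 of 9 were past 2-fold over control, beside 13.9%, 10.9% and 9.06%, and 1 of 7 in each combination, beside 4.94% and 3.35%. The median log2 ratio of all genes over control was 0.15, 0.12 and 0.13 in monocytes and 0.19, 0.16 and 0.07 in neutrophils, and values in these classes are to be read relative to that shift.

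**Figure D2:**
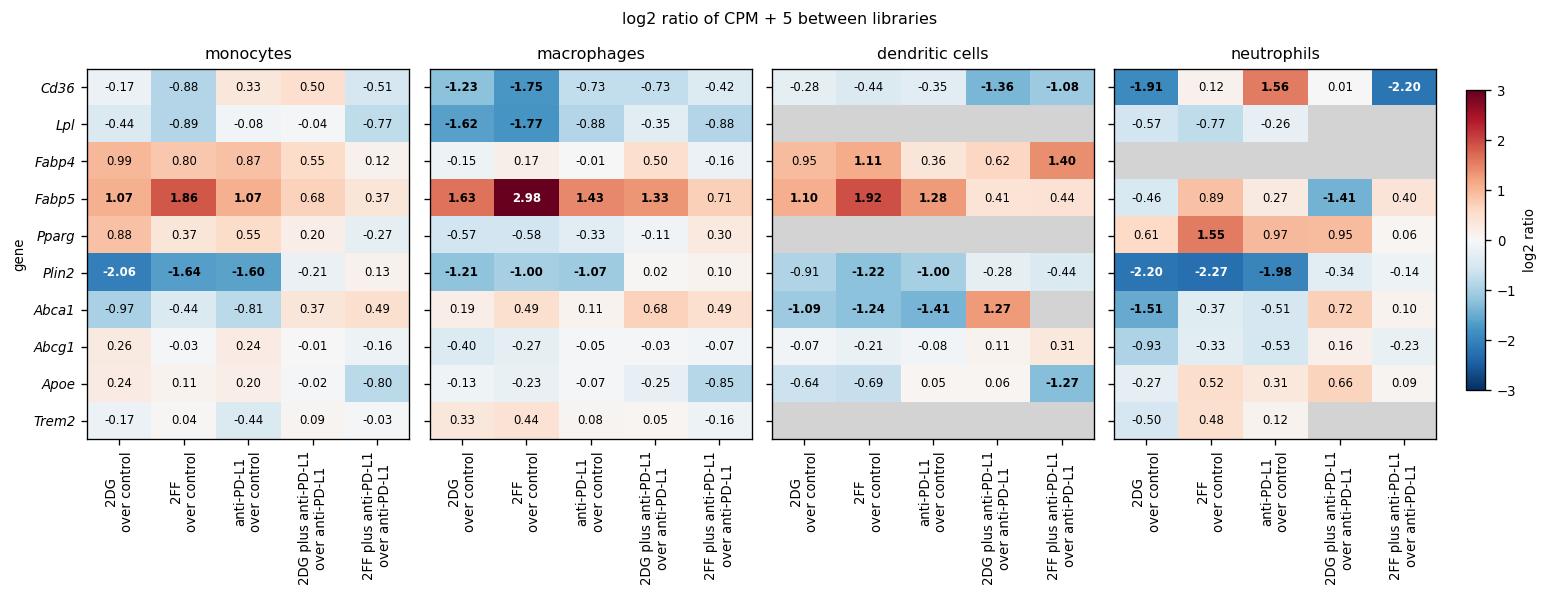
log2 ratio of CPM + 5 of each gene in the 5 comparisons, by cell class. Bold values are past 2-fold and grey cells had under 50 UMIs over both libraries. Fabp5 rows are red and Plin2 rows blue in the 3 comparisons with control in monocytes, macrophages and dendritic cells.

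Cd36 in macrophages was 100.4 CPM in control, 40.1 in 2DG, 26.4 in 2FF, 58.6 in anti-PD-L1, 33.4 in 2DG plus anti-PD-L1 and 42.6 in 2FF plus anti-PD-L1. The control library was thus the highest and 2FF the lowest. The log2 ratio was -1.23 for 2DG and -1.75 for 2FF over control, and -0.73 for anti-PD-L1, which did not reach 2-fold. At a common depth of 2000 UMIs per cell, a Cd36 UMI was found in 3.78% to 9.79% of macrophages and in 0.21% to 0.391% of T cells (without thinning, 11.9% to 28.0% and 0.554% to 1.22%, at median depths of 9584.5 to 13638 and 5814 to 7629 UMIs). Cd36 in macrophages was therefore above its level in T cells. Platelets also carry Cd36, and the part of platelet RNA in the control value was not tested.

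The monocyte class as a whole behaved differently for Cd36. Its levels were 60.4, 53.0, 30.5, 77.2, 111.6 and 52.8 CPM in the same order of libraries, with control in the middle. Non-classical monocytes, the patrolling cells of the vessel wall, which were gated on 2 UMIs of Ace and Treml4, held Cd36 at 616 CPM in control, 239 in 2DG, 127 in 2FF, 455 in anti-PD-L1, 748 in 2DG plus anti-PD-L1 and 344 in 2FF plus anti-PD-L1. Classical monocytes held 29.7 CPM in control and 10.4 to 26.6 in the others, so the ranges of both subsets did not overlap. Control was thus the highest within classical monocytes. The same held in monocytes and macrophages high in Spp1 and Gpnmb, with 75.7 CPM in control against 22.8 to 60.6. The mix of monocytes and macrophages in that set differed between libraries. The part of subset makeup in the order of the whole class was not tested. Only 34 cells of the control library were non-classical monocytes, against 153 to 293 in the treated libraries, and control values of this subset rest on those 34 cells.

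Dendritic cells also split by subset. Type 1 dendritic cells, the cross-presenting cells that carry Xcr1 and Clec9a, held Cd36 at 102 to 216 CPM, whereas type 2 dendritic cells held 0 to 13.7 and mature dendritic cells 1.15 to 41.0. The class as a whole was at 74.2 CPM in anti-PD-L1, and it fell to 25.8 with added 2DG and to 32.4 with added 2FF (log2 ratios of -1.36 and -1.08). Within type 1 dendritic cells the same libraries held 206, 102 and 118 CPM, and these cells numbered 67, 30 and 40.

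Cd36 in neutrophils rested on few cells. Levels were 19.4, 1.49, 21.6, 66.8, 67.3 and 10.7 CPM, from 339, 2, 31, 62, 51 and 16 UMIs. Between 0.755% and 5.15% of neutrophils held a UMI, and up to 20 UMIs came from 1 cell. The values past 2-fold in this class were -1.91 for 2DG over control (counting interval of the CPM ratio -6.75 to -1.84, from 2 UMIs), 1.56 for anti-PD-L1 over control, and -2.20 for the antibody with 2FF against the antibody alone.

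Lpl in macrophages was 94.9 CPM in control, 27.4 in 2DG, 24.4 in 2FF, 49.1 in anti-PD-L1, 37.5 in 2DG plus anti-PD-L1 and 24.4 in 2FF plus anti-PD-L1. As for Cd36, control was highest and anti-PD-L1 second. The log2 ratios over control were -1.62, -1.77 and -0.88, of which the first 2 were past 2-fold. In control the level was 106 CPM in C1q macrophages low in Spp1 and 36.7 in cells high in Spp1 and Gpnmb, a set that holds monocytes as well as macrophages. In the treated libraries it was 25.2 to 45.4 CPM in the first set and 15.2 to 44.2 in the second. Lpl was at 8.31 to 19.7 CPM in monocytes, and over all libraries only 59 UMIs were counted in dendritic cells and 75 in neutrophils.

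Cd36 lies on chromosome 5 (GRCm38 17781690 to 17888801, minus strand), and its RefSeq promoter window, which falls inside those bounds, holds 1 copy of the letters AGGTCA, the hexamer to which nuclear receptors such as PPARγ and LXR bind in pairs. It is shown to mark where the letters lie, and control of Cd36 by PPARγ in these cells was not tested. Pparg, in all 6 libraries, and Cd36, in 5 of 6, were higher in non-classical monocytes than in the other subsets gated. Type 1 dendritic cells held Cd36 at 102 to 216 CPM but Pparg at only 1.52 to 9.15 CPM. Capitals mark the hexamer, here read on the opposite strand.
Cd36, chr5:17835897-17836146, minus strand: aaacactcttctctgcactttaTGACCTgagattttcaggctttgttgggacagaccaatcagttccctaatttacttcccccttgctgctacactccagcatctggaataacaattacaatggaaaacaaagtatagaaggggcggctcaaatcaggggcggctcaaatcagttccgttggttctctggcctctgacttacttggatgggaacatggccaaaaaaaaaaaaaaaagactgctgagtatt
Windows of 250 bases before to 50 after a start were present for 6 of the 10 genes. AGGTCA occurred on either strand in a window of Cd36, Pparg, Plin2 and Trem2, overlaps counted, and in 16.3% of all 32851 windows. Direct repeats of AGGTCA with 1 or 4 bases between them, the paired forms, occurred in 0.0396% and 0.0152% of windows and in none of these genes. A match is a description of these letters and not a bound site.

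Fabp4 was a minor RNA of macrophages. Levels there were 5.42 CPM in control, 4.402 in 2DG, 6.69 in 2FF, 5.33 in anti-PD-L1, 9.62 in 2DG plus anti-PD-L1 and 4.21 in 2FF plus anti-PD-L1, from 48 to 127 UMIs each. Thinned to 2000 UMIs, 0.595% to 1.26% of macrophages held a Fabp4 UMI, against 0 to 0.153% of T cells. The gene was instead found in non-classical monocytes (110 to 188 CPM) and mature dendritic cells (30.7 to 143 CPM).

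In mature dendritic cells, which carry Ccr7, Fscn1 and Ccl22, Fabp4 was lowest in control (30.7 CPM) and highest in 2FF plus anti-PD-L1 (143 CPM), with 74.8 CPM in 2DG, 73.9 in 2FF, 41.8 in anti-PD-L1 and 69.6 in 2DG plus anti-PD-L1. These rest on 42 to 124 UMIs, and up to 62 UMIs came from 1 cell. No Fabp4 UMI was counted in type 1 dendritic cells of any library. Over the whole dendritic class the log2 ratio was 1.11 for 2FF over control and 1.40 for the antibody with 2FF against the antibody alone. In monocytes Fabp4 was 7.49 CPM in control and 16.8 to 28.5 CPM in the treated libraries, with log2 ratios of 0.99, 0.80 and 0.87. In classical monocytes alone it was 2.55 CPM in control and 1.59 to 6.48 CPM in the others, which overlap. The control library held few non-classical monocytes, and the part of subset makeup in the Fabp4 order of all monocytes was not tested.

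Fabp5, the epidermal-type fatty acid binding protein, was the member with the largest differences in macrophages. It was 225 CPM in control, 708 in 2DG, 1809 in 2FF, 614 in anti-PD-L1, 1548 in 2DG plus anti-PD-L1 and 1007 in 2FF plus anti-PD-L1. Control lay below all 5 treated libraries, and the gap to the nearest of them was 1.43 on the log2 scale. Control was the lowest library for 23.2% of genes tested in macrophages, and at least 2-fold below all others for 0.355%. The log2 ratios over control were 1.63 for 2DG (95% counting interval of the CPM ratio 1.60 to 1.71), 2.98 for 2FF (2.96 to 3.06) and 1.43 for anti-PD-L1 (1.39 to 1.51).

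Against anti-PD-L1 alone, the ratio was 1.33 with added 2DG and 0.71 with added 2FF. The order of 2DG and 2FF thus differed between the single treatments and the combinations: 2FF held more Fabp5 than 2DG when given alone, and less when given with the antibody. The share of macrophages with a Fabp5 UMI, thinned to 2000 UMIs, was 21.7% in control and 35.9% to 60.8% in the treated libraries, beside 9.02% to 12.9% in T cells.

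Control was also the lowest library in monocytes and dendritic cells, though not in each of their subsets. In monocytes Fabp5 was 329 CPM in control and 694, 1208, 695, 1119 and 901 CPM in the treated libraries. In dendritic cells it was 553 CPM in control and 1191, 2110, 1346, 1789 and 1822 CPM. Control was the lowest for 41.1% of genes in monocytes and 22.2% in dendritic cells, and at least 2-fold below all others for 1.38% and 0.253%. Classical monocytes held 282 CPM in control and 657 to 1208 CPM in the others. Non-classical monocytes, only 34 of them in control, held 407 CPM in control and 667, 828, 445, 415 and 418 CPM in the others. Here control lay near the antibody alone and both combinations, with a log2 gap to the nearest library of -0.03, and below 2DG and 2FF. Most of the dendritic Fabp5 came from mature cells, with 1407 CPM in control and 2950 to 4725 CPM in the others. Type 2 dendritic cells held 25.5 CPM in control and 161 to 456 CPM in the others, and type 1 cells 15.3 CPM in control, within the 12.4 to 54.7 CPM of the others. Control was also the lowest in both sets split by Spp1, with 164 CPM in control and 615 to 1780 CPM in the others for C1q macrophages low in Spp1, and 335 against 663 to 1796 CPM for Spp1-high cells. The Spp1-high set holds monocytes and macrophages, in a mix that differed between libraries.

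In neutrophils, too, control was not the lowest library. Their Fabp5 level was 175 CPM in control and 126, 328, 211, 76.5 and 280 CPM in the others, so control lay within the treated range. T cells held 78.4 CPM in control and 90.3 to 199 CPM in the others, where the gap of control to the nearest treated library was only -0.19 on the log2 scale, and B cells held 8.94 against 21.7 to 77.8 CPM. Control was the lowest library for 28.7% of genes in T cells and 33.3% in B cells. Fabp5 lies on chromosome 3 (GRCm38 10012548 to 10016607), near Fabp4. The mouse genome holds processed copies of Fabp5 that are not among the counted genes. Whether reads that match such copies alter the absolute level was not tested.

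Pparg was low in macrophages, at 16.2, 9.35, 9.20, 11.8, 10.6 and 15.8 CPM, and no comparison reached 2-fold. In non-classical monocytes it was 402 CPM in control, 334 in 2DG, 303 in 2FF, 316 in anti-PD-L1, 433 in 2DG plus anti-PD-L1 and 380 in 2FF plus anti-PD-L1. These 6 values lay close together, and all were above those of classical monocytes (9.92 to 18.5 CPM) in every library. Over the 24 points of 4 classes and 6 libraries, the gene most like Pparg in log2(CPM + 5) was Ace (r = 0.9588), followed by Zfyve9 (0.9364) and Smpdl3a (0.9347). Ace is a marker of the monocyte gate as well as of the non-classical gate, so its order over the classes is partly set by gating. The 24 points share libraries and cell classes, and the correlation is a description. In neutrophils Pparg was 8.58 CPM in control and 15.7 to 46.2 in the others, from 20 to 50 UMIs in each treated library, and 2FF over control was past 2-fold (1.55).

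**Figure D3:**
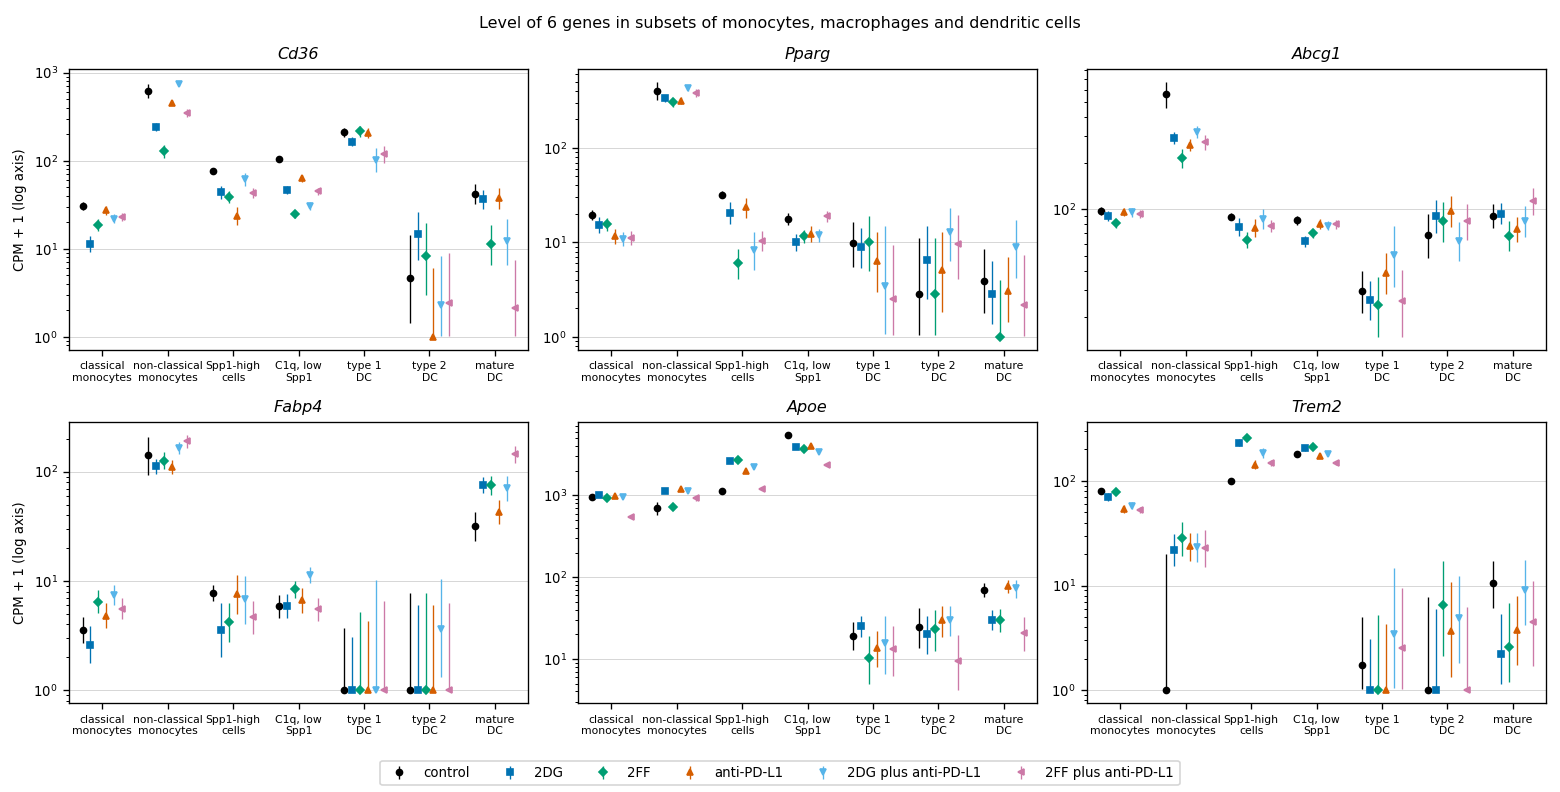
Level of 6 genes in CPM + 1 (log axis) in subsets of monocytes, macrophages and dendritic cells (DC), with 1 point per library and 95% Poisson bars. Pparg, Abcg1 and Fabp4, and Cd36 in 5 of 6 libraries, lie highest in non-classical monocytes, Cd36 also marks type 1 and Fabp4 mature dendritic cells, and Apoe is highest in C1q macrophages low in Spp1.

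Plin2 was the member that set the control library apart in every class. In macrophages it was 605 CPM in control, 258 in 2DG, 299 in 2FF, 286 in anti-PD-L1, 291 in 2DG plus anti-PD-L1 and 307 in 2FF plus anti-PD-L1. The 5 treated libraries lay between 258 and 307 CPM, and control was about 2-fold above them. The log2 ratios over control were -1.21, -1.003 and -1.07, and those of the combinations against anti-PD-L1 alone were 0.02 and 0.10. The 2FF value sits on the 2-fold line and passed it in 5 of 10 alternative analyses.

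The difference was larger in monocytes and neutrophils. In monocytes Plin2 was 974 CPM in control and 230, 309, 318, 274 and 350 CPM in the others, which gave log2 ratios of -2.06, -1.64 and -1.60. In neutrophils it was 1692 CPM in control and 364, 347, 425, 335 and 383 CPM in the others, with log2 ratios of -2.20, -2.27 and -1.98. A control at least 2-fold above all 5 treated libraries, as for Plin2 in both classes, was seen for 1% of genes in monocytes and 0.882% in neutrophils. In dendritic cells the values were 144 CPM in control and 74.1, 58.7, 69.3, 55.98 and 49.9 CPM. The gap between control and the nearest treated library was 0.97 in macrophages and 0.91 in dendritic cells, just short of that line, which 0.453% and 0.406% of genes passed. Control was the highest library, by any margin, for 27.7% of genes in macrophages, 19.9% in monocytes, 24.5% in dendritic cells and 16.6% in neutrophils.

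The same order was found in lymphoid cells. Gated T cells held 112 CPM of Plin2 in control and 26.3 to 33.0 CPM in the treated libraries, and gated B cells 91.6 CPM against 19.7 to 31.5. Control was the highest library for 32.7% of genes in T cells and 18.5% in B cells, and at least 2-fold above all others, as for Plin2, for 0.725% and 0.449%. The summed neutrophil markers were also higher in control cells of other classes, at 1086 CPM in monocytes (against 337 to 638), 1695 in macrophages (against 253 to 670) and 345 in T cells (against 139 to 223). In neutrophils themselves these markers stood at 53124 CPM in control, beside 1692 CPM of Plin2, whereas control macrophages held 1695 CPM of the markers beside 605 CPM of Plin2. The part of free neutrophil RNA in the Plin2 difference was not tested. Plin2 was at 842 CPM in classical monocytes of control and 210 to 304 CPM in those of the others, and at 494 against 247 to 294 CPM in C1q macrophages low in Spp1. In Spp1-high cells, of which the control library held 1368 and the others 206 to 543, it was 1045 against 343 to 564 CPM. The control library was thus the highest within each of these subsets. Spp1-high cells are a mix of monocytes and macrophages. Of macrophages, 734 of 1060 in control, 892 of 1017 in 2DG and 1278 of 1523 in 2FF were low in Spp1, and the rest were Spp1-high. The mix thus differed between libraries, and its part in the Plin2 order was not tested.

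**Figure D4:**
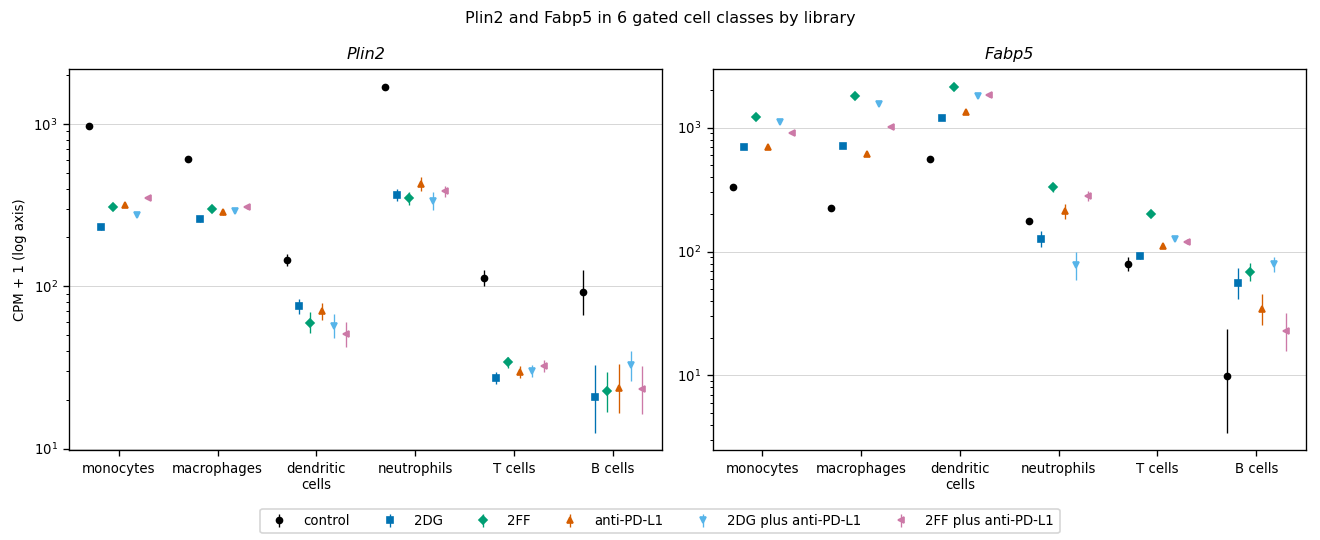
Plin2 and Fabp5 in CPM + 1 (log axis) in the 4 myeloid classes and in gated T and B cells, with 1 point per library and 95% Poisson bars. The black control point is the highest for Plin2 in all 6 classes. For Fabp5 it is the lowest in all classes but neutrophils.

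Over the 24 points the genes most like Plin2 were Tmem189 (r = 0.9652), Atp6v1b2 (0.9583) and Slc2a1 (0.9543), the last being the glucose transporter GLUT1. Plin2 lies on chromosome 4 (GRCm38 86648386 to 86670060, minus strand). Its RefSeq window holds CACGTG across the start, the core letters to which basic helix-loop-helix factors such as USF, MYC and TFEB bind, and 1 AGGTCA hexamer on the opposite strand. CACGTG was found in 7.15% of all windows and, among the 6 genes with a window, in those of Plin2 and Abca1. Both are printed to show where the letters lie, in capitals, 5′ to 3′. The first runs from 250 bases before the RefSeq start to the end of the motif, and the second covers the 250 bases before the start.
Plin2, chr4:86670058-86670309, minus strand: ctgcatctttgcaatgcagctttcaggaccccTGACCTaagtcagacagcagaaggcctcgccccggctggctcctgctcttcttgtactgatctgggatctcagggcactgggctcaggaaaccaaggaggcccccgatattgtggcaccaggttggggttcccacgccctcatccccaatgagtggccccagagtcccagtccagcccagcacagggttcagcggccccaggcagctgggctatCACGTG
Abca1, chr4:53159896-53160145, minus strand: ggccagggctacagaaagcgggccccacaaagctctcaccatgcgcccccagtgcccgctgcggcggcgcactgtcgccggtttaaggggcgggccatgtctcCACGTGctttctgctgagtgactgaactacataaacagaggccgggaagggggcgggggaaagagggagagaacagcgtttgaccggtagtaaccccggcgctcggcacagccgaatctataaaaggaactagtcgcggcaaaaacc
In macrophages, control was the highest library for Plin2 and the lowest for Abca1. For both genes it was the highest in monocytes (974 and 468 CPM), dendritic cells (144 and 25.6 CPM) and T cells (112 and 44.1 CPM). In neutrophils and B cells it was the highest for Plin2 and within the treated range for Abca1.

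Abca1, the cholesterol exporter that LXR receptors induce, was 520 CPM in control macrophages, 594 in 2DG, 730 in 2FF, 560 in anti-PD-L1, 901 in 2DG plus anti-PD-L1 and 789 in 2FF plus anti-PD-L1. The 3 highest values were those of 2FF and both combinations. None of the ratios reached 2-fold, with 0.68 for added 2DG and 0.49 for added 2FF against anti-PD-L1 alone. In monocytes control was instead the highest, at 468 CPM against 237 to 373, and the log2 ratios over control were -0.97, -0.44 and -0.81. In classical monocytes alone control held 337 CPM against 202 to 327. In Spp1-high cells, which include monocytes, control was the lowest, at 647 against 812 to 1030 CPM. These cells numbered 1368 in control and 206 to 543 in the others, and the part of subset makeup in the monocyte order was not tested.

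Dendritic cells held little Abca1, with 25.6, 9.32, 7.92, 6.53, 22.8 and 5.27 CPM from 13 to 93 UMIs. The ratios past 2-fold in this class (-1.09, -1.24 and -1.41 over control, and 1.27 for added 2DG against anti-PD-L1 alone) rest on these counts. T cells held 44.1, 12.2, 21.3, 13.6, 14.6 and 19.6 CPM in the same libraries, more than the dendritic cells in 5 of 6. The exception was 2DG plus anti-PD-L1, with 22.8 CPM in dendritic cells and 14.6 in T cells. The part of free RNA in these values was not tested. In neutrophils Abca1 was 292 CPM in control and 99.2 in 2DG (a log2 ratio of -1.51), and 204 to 339 in the other 4 libraries.

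Abcg1, which exports cholesterol to mature lipoproteins, differed little between libraries in macrophages, in monocytes as a whole and in dendritic cells. Its levels in macrophages, in the same order of libraries, were 81.2, 60.3, 66.3, 78.3, 76.8 and 74.1 CPM, and it passed 2-fold in no class and no comparison. The range over libraries was 104 to 128 CPM in monocytes, 56.1 to 77.9 in dendritic cells and 84.3 to 165 in neutrophils. In neutrophils control was the highest, at 165 CPM against 84.3 to 130. Non-classical monocytes stood above the other subsets, with 558 CPM in control and 214 to 317 CPM in the others, against 80.2 to 96.8 CPM in classical monocytes. T cells held 38.2 to 47.6 CPM.

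Apoe was concentrated in macrophages, which gave 65.2% of all its UMIs while they were 13.7% of the cells. Levels were 4233 CPM in control, 3871 in 2DG, 3620 in 2FF, 4035 in anti-PD-L1, 3391 in 2DG plus anti-PD-L1 and 2243 in 2FF plus anti-PD-L1. The last library was the lowest, and its log2 ratio against anti-PD-L1 alone was -0.85 (-0.87 to -0.83). That ratio did not reach 2-fold but lay at percentile 0.49 of all genes tested. In monocytes 2FF plus anti-PD-L1 was again the lowest, at 555 CPM against 841 to 994, and its log2 ratio against the antibody alone was -0.80. In dendritic cells the ratio was -1.27, from 34 against 154 UMIs, at levels (13.8 and 40.2 CPM) no higher than those of T cells (30.9 and 50.4 CPM).

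In the control library, C1q macrophages low in Spp1 held 5436 CPM of Apoe and Spp1-high cells 1127 CPM. In the treated libraries the corresponding levels were 2383 to 4047 and 1193 to 2685 CPM. Spp1-high cells, 1368 in control and 206 to 543 in the others, include monocytes by the gate, which hold less Apoe, and the part of monocytes in the gap between the sets was not tested.

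Trem2 in macrophages was 168 CPM in control, 212 in 2DG, 229 in 2FF, 178 in anti-PD-L1, 184 in 2DG plus anti-PD-L1 and 159 in 2FF plus anti-PD-L1. The largest log2 ratio was 0.44, for 2FF over control. At 2000 UMIs per cell, 23.8% to 31.4% of macrophages and 8.44% to 12.01% of monocytes held a Trem2 UMI, against 0.279% to 0.785% of T cells. In Spp1-high cells Trem2 was 99.1 CPM in control and 142 to 259 CPM in the others. This set includes monocytes, which held less Trem2 (52.2 to 76.2 CPM over the 6 libraries). The part of monocytes in the difference was not tested. In C1q macrophages low in Spp1, control held 180 CPM, within the 148 to 211 CPM of the others.

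Trem2 and Apoe were each other's nearest gene over the 24 points (r = 0.9825, among 5919 genes compared), and Mfsd1 and Itgb5 came next for both (0.9713 and 0.9689 for Apoe, 0.9730 and 0.9728 for Trem2). The genes nearest to Abca1 were Lrmda (0.9692), Arhgap24 (0.9672) and Fcgr3 (0.9664). Among those nearest to Lpl were Daglb (0.9217) and BC005537 (0.9214). The genes most like Abcg1 were Fbxo28 (0.9194), Diaph1 (0.9185) and Il13ra1 (0.9113), and those most like Fabp5 were Nrp2 (0.9045), Mrpl14 (0.9023) and Cnn3 (0.9019). Fabp4 came closest to Pik3r5 (0.8703), Crybg1 (0.8527) and Fam49a (0.8518), and Cd36, with the weakest values, to Pikfyve (0.7523), Rere (0.7500) and Mpeg1 (0.7424).

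Other genes of lipid metabolism were read from lists that hold none of the 10 genes. In the 3 comparisons with control in macrophages, the list of lipid droplets and lipolysis had the lowest medians among the lists with several tested genes, at -0.44, -0.42 and -0.25, beside 0.00, -0.04 and 0.02 for all genes. Of its 10 tested genes, 9, 8 and 9 were below 0. The share of all genes below 0 is not given here, so whether these counts are high was not tested. In each case 2 genes of the list were past 2-fold. These were Hilpda, an inhibitor of droplet lipolysis, and G0s2, which acts likewise on the same lipase.

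Hilpda was 348 CPM in control macrophages and 97.9, 158, 95.1, 144 and 176 CPM in the treated libraries. In neutrophils it was 1487 CPM in control and 127 to 299 CPM in the others, and in T cells 133 against 21.7 to 47.3. As for Plin2, control was the highest in each of these classes. G0s2 was 93.9 CPM in control macrophages and 1.28 to 10.1 CPM in the others, while neutrophils of all libraries held 1690 to 3115 CPM. Since neutrophil markers were also higher in control macrophages, the part of neutrophil RNA in the G0s2 value was not tested.

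Sterol synthesis lay on the other side of 0. All 13 genes of the list were above 0 in macrophages for 2DG and for anti-PD-L1 over control (medians 0.43 and 0.41), and 10 of 13 for 2FF (0.09). In the combinations against the antibody alone, 12 of 13 were below 0 (medians -0.39 and -0.21, beside -0.08 for all genes in both). The share of all genes on either side of 0 is not given here, so whether these counts of sterol genes are high was not tested. Fdps, a prenyl synthase of the cholesterol pathway, was past 2-fold for 2DG (1.02) and 2FF (1.21). Cyp51, the sterol demethylase, was 22.1 CPM in control and 47.0, 36.0, 47.4, 29.3 and 32.2 CPM in the others.

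**Figure D5:**
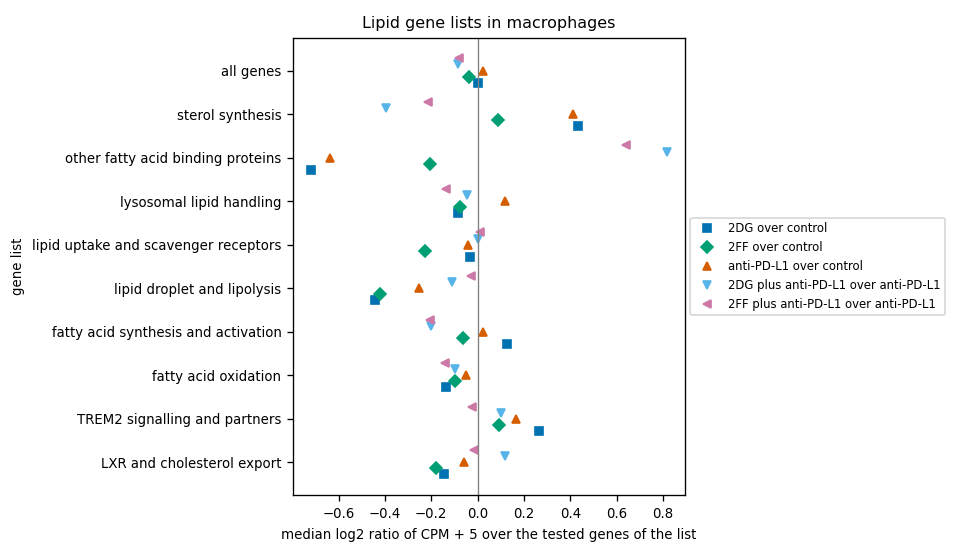
Median log2 ratio of CPM + 5 in macrophages over the tested genes of 9 lipid gene lists and of all genes, with 1 symbol per comparison. Sterol synthesis lies above 0 in the 3 comparisons with control and below 0 in both combinations against anti-PD-L1 alone, and the list of other fatty acid binding proteins holds only 1 or 2 tested genes.

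Among uptake receptors, Cxcl16, a scavenger receptor for oxidized lipoproteins, was 214 CPM in control macrophages and 432 to 535 CPM in the treated libraries, with log2 ratios over control of 1.05, 1.21 and 1.05. Stab1, a clearance receptor of tissue macrophages, was 224 CPM in control and 84.7 to 134 in the others, and was past 2-fold for 2FF (-1.18). Marco was 36.1 CPM in 2DG plus anti-PD-L1 and 4.12 to 12.9 CPM elsewhere, which gave 1.71 against anti-PD-L1 alone. The medians of this list of 9 tested genes were -0.03, -0.23 and -0.04 over control and 0.00 and 0.01 in the combinations.

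In the list of LXR and cholesterol export, Nr1h3, which encodes LXRα, was 6.69 CPM in control macrophages and 12.9, 24.9, 18.7, 24.3 and 17.5 CPM in the others. It was past 2-fold for 2FF (1.36) and anti-PD-L1 (1.02) over control and was the only one of 10 tested genes to be so. The median of this list was -0.14, -0.18 and -0.06 over control and 0.12 and -0.01 in the combinations. Soat1, which esterifies cholesterol for storage, was 211 CPM in control and 120 to 133 CPM in the others.

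The remaining lists held few or no genes past 2-fold in macrophages. In fatty acid oxidation this was 0 of 14 in each comparison (medians -0.14 to -0.05), in fatty acid synthesis and activation 0 of 13 (-0.21 to 0.13), in lysosomal lipid handling 0 of 12 (-0.14 to 0.12), and among TREM2 signalling and partners 0 of 10 (-0.03 to 0.27). Fasn, the fatty acid synthase, had log2 ratios of -0.93 and -0.72 in the combinations against anti-PD-L1 alone. For added 2DG against anti-PD-L1 alone, Dgat1 of the droplet list, which makes triglyceride, was past 2-fold (1.04), at 44.7 against 19.1 CPM, while the medians of that list were -0.11 and -0.03 in the combinations. Of other fatty acid binding proteins only Fabp7 and Fabp12 had enough UMIs, at 8.78 CPM or less.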

How the data were processed

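The deposited values are UMI counts, 1 per gene and barcode, that the authors made with Cell Ranger on the mouse genome mm10 (the submitters' processing notes name version 3.1.0, and the methods a later one). Barcodes had been called as cells, but the study's limits on genes and mitochondrial UMIs were not applied and were applied here. Cells were gated on marker UMIs alone, none of them a member. Macrophages needed 10 C1qa, C1qb and C1qc UMIs and 2 of other macrophage markers, monocytes 5 monocyte marker UMIs, dendritic cells 3 from 2 genes, and neutrophils 3 from 2 genes with 5 of S100a8 and S100a9. Cells with 2 lymphoid or 3 tumor or stromal marker UMIs were left out. No doublet caller was run. Classical and non-classical monocytes, Spp1-high cells (20 Spp1 and Gpnmb UMIs) and dendritic subsets were gated likewise. T and B cells had 3 UMIs of their markers.

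Class sums were divided by the class total (CPM). Intervals were exact Poisson for sums and exact Clopper-Pearson for shares and for ratios, at 95%. The ratio script was tested on simulated data. Named beside the members are the 3 most alike genes of each among genes of at least 20 CPM on average, and the genes with the largest ratio in each list in macrophages. A few of these genes are not reported here. Members, lists and gate thresholds were chosen with earlier results of these data known, and the gate thresholds after marker levels had been seen. Promoter windows are from RefSeq on GRCm38.p6 and gene positions from GENCODE M21. Scripts used Python 3.11.15, numpy 2.4.6, scipy 1.17.1 and pandas 2.3.3. Alternatives were another mitochondrial limit, other gates, thinning, other scaling, other added CPM and no minimum of UMIs.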

Additional observations from a re-analysis of the deposited data

Results flagged for a closer look

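Fabp5 moved in opposite directions in 2 cell classes under the same comparison. For 2DG plus anti-PD-L1 against the antibody alone, its log2 ratio was 1.33 in macrophages, from 20451 and 5649 UMIs, and -1.41 in neutrophils, from 58 and 196 UMIs. Each class is represented by 1 library per group, so the difference between the classes was not tested. The neutrophil value ranged from -1.83 to -0.21 over 9 alternative analyses and the macrophage value from 1.19 to 1.45 over 10.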

How the results depend on the processing

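The count of genes highest in macrophages was 25 of 60 pairs and 24 to 27 under 7 alternatives. The count of values past 2-fold in macrophages was 11, and 9 to 13 under 10 alternatives. In monocytes it was 6, and rose to 13 when each cell took the class of its highest marker score and to 10 with 1 CPM added. In dendritic cells it was 14 of 34 pairs of a gene and a comparison with enough UMIs. It was 5 of 8 with each cell thinned to 1000 UMIs and 5 of 34 with 20 CPM added. In neutrophils it was 9 of 41, and 3 of 23 with thinning. In both classes thinning left fewer pairs with enough UMIs to be counted. The cause of the other shifts was not tested. No value past 2-fold changed its sign. Plin2 for 2FF over control in macrophages ranged from -1.10 to -0.93, and Cd36 for 2DG over control in neutrophils from -3.03 to -0.44. No paired analysis was possible because each group has 1 library, and for the same reason no library could be left out of a group. Genes under about 50 UMIs over both libraries, such as Lpl and Trem2 in dendritic cells, were not counted in the main analysis. Trem2 in dendritic cells was 0.433 to 4.74 CPM, beside 2.34 to 5.25 CPM in T cells. Lpl in dendritic cells was 0.330 to 9.34 CPM, beside 0.253 to 1.25 CPM in T cells.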

Other observations

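Gated B cells also held Abca1 and Apoe. Abca1 stood at 181, 121, 126, 157, 123 and 206 CPM in the B cells of control, of 2DG, of 2FF, of the antibody alone, and of the antibody with 2DG and with 2FF, against 12.2 to 44.1 CPM in T cells. Apoe stood at 340, 179, 284, 265, 129 and 250 CPM, against 30.9 to 67.1 CPM in T cells. These cells numbered 60 in control and 119 to 427 in the treated libraries, and held 964 to 1438 CPM of the summed monocyte markers, against 442 to 837 CPM in T cells and at least 4660 CPM in monocytes. The part of monocyte or macrophage RNA in these values was not tested. The macrophage markers in the same B cells were at 98.3 to 197 CPM, near those of T cells (97.4 to 182 CPM).

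Pparg in T cells was 24.1 CPM in control and 5.99 to 10.8 CPM in the treated libraries. At 2000 UMIs per cell, 2.11% of T cells held a Pparg UMI in control and 0.853% to 1.24% in the others. The control library had 364 gated T cells.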
